A study of Mus musculus with 9 samples.

Results

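The genes described here are 7 that make, package, take up, break down or sense GABA, the main inhibitory transmitter of the cortex. They are Gad1, Gad2, Slc32a1, Slc6a11, Abat, Gabbr1 and Gabbr2. They were chosen by name, and each was read from the probe set whose single annotated gene it is, the brighter one on average where a gene had several. All 7 were measured, among 22180 named genes on the arrays.

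Total RNA was taken from microdissected anterior cingulate cortex, a medial frontal region, of C57BL/6J mice, an inbred laboratory strain, with 9 arrays in 3 groups of 3 that the labels call biological replicates. Saline mice received an intraperitoneal injection at ZT5 (ZT counts hours from lights on). Ketamine mice (KT in the labels) received ketamine, a blocker of NMDA-type glutamate receptors, at 3 mg/kg by the same route and at the same time. For sleep-deprived mice (SD), a turning bar in the cage prevented sleep between ZT0 and ZT12, and the labels name no injection for them. All tissue was taken at ZT13, so injection and wakefulness cannot be told apart in a difference between SD and either injected group. The labels give no age or sex, and do not say whether any array holds RNA of more than 1 mouse.

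GABA is made from glutamate by glutamate decarboxylase, which exists as a pair of enzymes encoded by Gad1 and Gad2. The vesicular transporter encoded by Slc32a1 (VGAT) loads it into synaptic vesicles of interneurons. After release it is cleared into neurons and astrocytes by membrane transporters, among them the largely astrocytic Slc6a11 (GAT-3), and is broken down by the mitochondrial GABA transaminase encoded by Abat. Slow inhibition runs through the GABA-B receptor, a G-protein-coupled receptor that works as a pair of GABBR1, which binds GABA, and GABBR2, which couples to the G protein. Ketamine at low dose and prolonged wakefulness are both studied for rapid effects on mood, and cortical interneurons are among the cells on which NMDA blockers act.

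None of the 7 genes passed the test between any groups. limma, fitted on log2(intensity + 16) over all 22180 genes with Benjamini-Hochberg adjustment, placed 0 of 7 members past an adjusted p of 0.05 in each of the 3 comparisons, and 0 of 7 reached an unadjusted p of 0.05. The same test called 0 genes at all in each comparison, 0% of those tested, while 1013, 781 and 2103 genes had an unadjusted p under 0.05 for KT minus saline, SD minus saline and KT minus SD. The intervals bound what could have been missed. Over the 21 differences the 95% intervals, read as ratios of intensity + 16, ran from 0.719 at the low end to 1.29 at the high end, and both extremes belonged to Gad1. Intervals come from 3 arrays per group with a shared estimate of spread, and they are not adjusted for the number of genes.

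**Figure D1:**
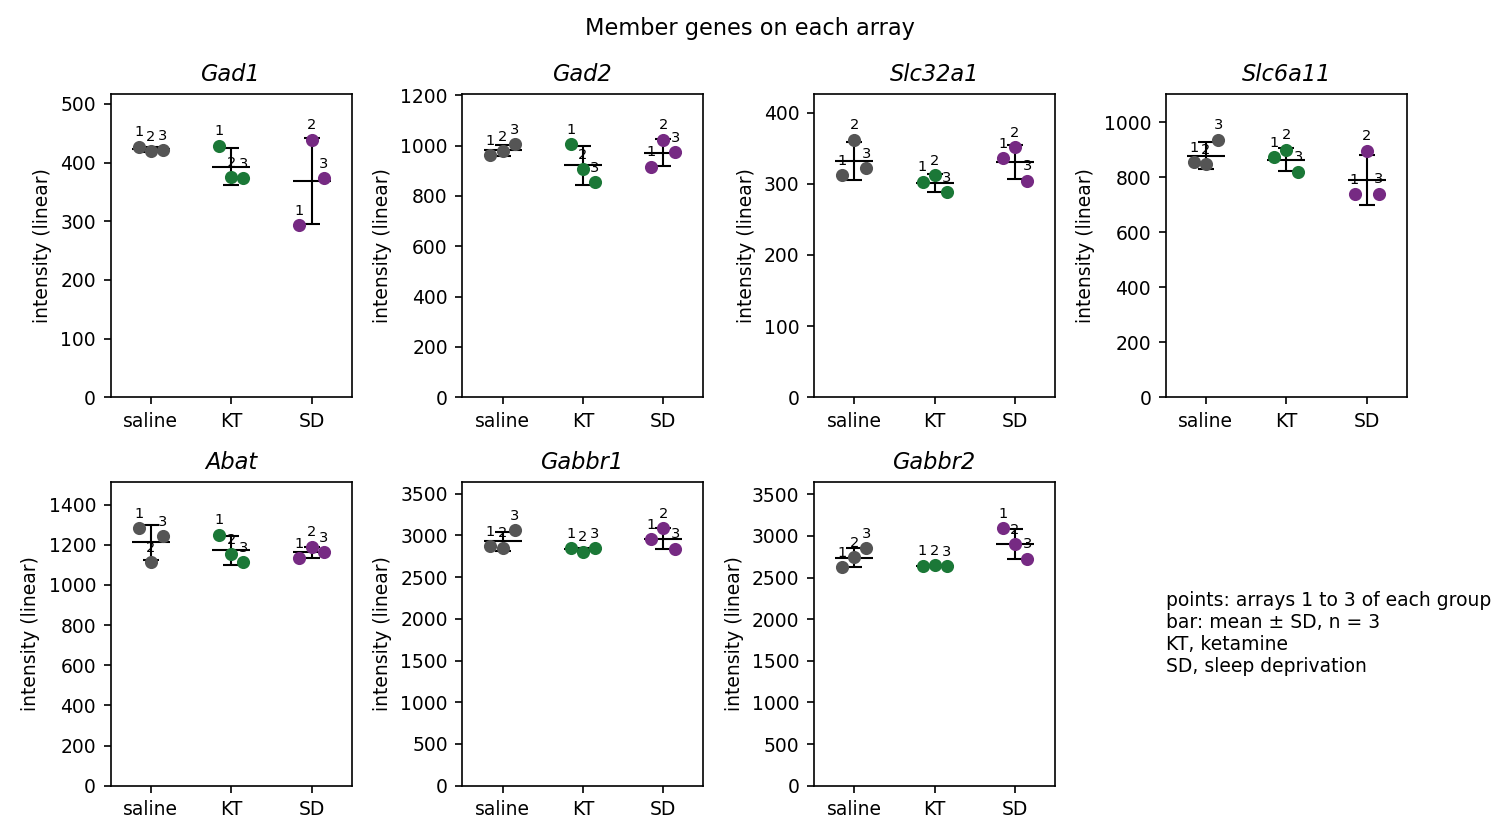
Linear intensity (y axis, from 0) of each of the 7 genes on every array, by group (x axis), with numbered points for arrays 1 to 3 and bars for the mean ± SD (n = 3). The groups overlap in nearly every panel, and SD array 1 of Gad1, at 293, is the farthest from its group.

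The enzymes of GABA synthesis differed in how far their arrays spread, and Gad1 had the widest range of the set. Gad1 (probe set 17371636) encodes GAD67, the isoform found throughout the cell and held to make most basal GABA. It read 427, 419.6 and 421 on the saline arrays, 429, 375 and 373 on the ketamine arrays, and 293, 439 and 374 on the SD arrays. The saline values lie within a few units of each other, whereas the other groups spread around and below them, and SD array 2 holds the highest value of all 9. With quantile normalization SD array 2 read 396, below the saline arrays at 415 to 419.

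The group means of Gad1 were 422.6 ± 4.07 for saline, 393 ± 31.5 for ketamine and 368 ± 73.0 for SD (SD, n = 3), in that order from high to low. Neighbours in this order did not separate. Ketamine minus saline was -0.105 ± 0.12 (log2 difference ± SE, adjusted p = 0.886 by limma) and SD minus saline was -0.21 ± 0.12 (adjusted p = 1). Without SD array 1 the latter was -0.059, and without SD array 2 it was -0.34 (adjusted p = 0.847), so its size depended on which array was kept. KT minus SD was 0.10 ± 0.12, and its sign turned to -0.046 without SD array 1.

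Gad2 (probe set 17367510) encodes GAD65, the isoform concentrated at nerve terminals. Its intensity was 962, 978 and 1006 after saline, 1005, 906 and 854 after ketamine, and 916, 1023 and 973 after sleep deprivation. Ketamine arrays 2 and 3 were the lowest of the 9, but ketamine array 1 matched the top of the saline range. The order of means was saline (982 ± 22.4), SD (971 ± 53.7) and ketamine (922 ± 76.8; SD, n = 3). The log2 differences were -0.093 ± 0.093 for KT minus saline, -0.017 ± 0.093 for SD minus saline and -0.075 ± 0.093 for KT minus SD (limma adjusted p = 0.877, 1 and 0.77). The shortfall of Gad1 on SD array 1, -0.51 against the saline mean, had a counterpart of -0.099 in Gad2 on the same array.

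The stretches before the annotated starts of these paired genes are shown because their enzymes make the same product while their array spread differed, with a within-group SD of 0.17 for Gad1 and 0.084 for Gad2 on the log2 scale. The wider spread of Gad1 came from the sleep-deprived group, at 0.28 against 0.079 for Gad2, where Gad1 on SD array 1 stood at -0.51 against the saline mean. Gad1 and Gad2 stood at 0.013 and 0.032 after saline, and at 0.11 and 0.12 after ketamine. Whether the printed stretches bear on the spread was not tested. They are the 250 bases upstream of the start in RefSeq on GRCm38.p6, plus strand, at chr2:70561879-70562128 for Gad1 and chr2:22622077-22622326 for Gad2. Capitals mark matches to the GC box (GGGCGG) or the TATA box (TATAAA) on either strand.
Gad1: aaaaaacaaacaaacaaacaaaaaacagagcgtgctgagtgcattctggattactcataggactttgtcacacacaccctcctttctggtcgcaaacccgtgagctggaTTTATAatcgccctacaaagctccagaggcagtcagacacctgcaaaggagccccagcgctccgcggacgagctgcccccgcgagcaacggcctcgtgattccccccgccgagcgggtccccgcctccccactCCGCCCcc
Gad2: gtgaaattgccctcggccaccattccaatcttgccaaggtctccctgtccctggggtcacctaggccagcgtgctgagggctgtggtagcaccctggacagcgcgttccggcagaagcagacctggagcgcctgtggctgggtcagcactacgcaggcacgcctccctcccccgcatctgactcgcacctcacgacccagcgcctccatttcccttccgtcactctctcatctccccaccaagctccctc

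Windows of this kind were held for 6 of the 7 members, Abat being named only. Their base composition was rich in G and C, from 58.0% in Gad1 to 80.8% in Gabbr2, against a median of 52.4% over 32851 windows of the same length. The GC box was present in 4 of the 6 (Gad1, Slc6a11, Gabbr1 and Gabbr2), against 32.7% of all windows. The TATA box letters occurred in 1, that of Gad1, against 12.4%. Neither the clock-related E-box (CACGTG, 6.02% of windows) nor the full cAMP response element (TGACGTCA, 1.55%), both searched on either strand, was found in these 6 stretches. No motif overlapped another in the printed sequences. These are matches of letters in a short window and say nothing about binding.

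The vesicular transporter gene Slc32a1 (probe set 17378922) read 312, 362 and 322 after saline, 303, 312 and 288 after ketamine, and 336, 351 and 304 after sleep deprivation. Every ketamine value lay at or below the lowest saline value except ketamine array 2, which exceeded saline array 1 by less than 1 unit, and the SD arrays overlapped both groups. Means were 332 ± 26.2 for saline, 331 ± 24.1 for SD and 301 ± 12.2 for ketamine (SD, n = 3). KT minus saline was -0.13 ± 0.095 and KT minus SD -0.13 ± 0.095 (limma adjusted p = 0.87 and 0.641), with SD minus saline at -0.0058 ± 0.095 (adjusted p = 1). As a ratio the interval of KT minus saline ran from 0.791 to 1.05. The difference of KT minus saline was -0.0725 without saline array 2, -0.075 with array weights and -0.055 with quantile normalization.

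The uptake and breakdown genes showed no difference past the test. Slc6a11 (probe set 17461852) read 853, 846 and 935 after saline, 872, 899 and 819.9 after ketamine, and 737, 896 and 740.1 after sleep deprivation. SD arrays 1 and 3 were the lowest of the 9, while SD array 2 lay inside the saline range, so the groups overlapped. With quantile normalization SD array 2 read 835, just below the saline arrays at 839 to 918, and the groups no longer overlapped. SD minus saline was -0.15 ± 0.10 (limma adjusted p = 1), which became -0.24 without SD array 2 and -0.106 without SD array 1. KT minus saline was -0.023 ± 0.10 and KT minus SD 0.13 ± 0.10 (adjusted p = 0.967 and 0.652).

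The same SD arrays, 1 and 3, also gave low values of Aqp4, the astrocyte water channel gene, at 511 and 551 against 619 to 709.9 after saline, while ketamine array 3 was lower still at 506. Over the 13 astrocyte markers, Aqp4 included and Slc6a11 not, the median difference of SD minus saline was -0.0044, with 7 of 13 lower and 0 past adjusted p 0.05. Gfap was at 0.13 ± 0.11 in the same comparison. The part of astrocyte content in the Slc6a11 values was not tested, and in bulk tissue fewer cells of a type and less RNA per cell cannot be told apart.

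Abat (probe set 17322750) read 1282, 1114 and 1242 after saline, 1251, 1154 and 1113 after ketamine, and 1135, 1191 and 1163 after sleep deprivation. The saline group alone spanned all but 1 of the other values. KT minus saline was -0.047 ± 0.093, SD minus saline -0.058 ± 0.093 and KT minus SD 0.011 ± 0.093 (limma adjusted p = 0.932, 1 and 0.972). The order of means, saline, ketamine and SD, rests on differences smaller than their standard errors.

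The GABA-B receptor genes had the smallest within-group SDs of the set on the log2 scale. Gabbr1 (probe set 17337513) read 2869, 2853 and 3064 after saline, 2845, 2807 and 2845 after ketamine, and 2957, 3085 and 2841 after sleep deprivation. All 3 ketamine values lay below all 3 saline values, by a narrow margin, and the mean difference was -0.047 ± 0.086 (limma adjusted p = 0.925). With quantile normalization the groups overlapped, ketamine array 3 reading 2906 and saline array 1 2838. Such separation downward was seen in 1 of 7 members, where 7.89% of all genes showed it, and upward separation in 0 of 7 against 6.48%. SD minus saline was 0.016 ± 0.086 and KT minus SD -0.063 ± 0.086 (adjusted p = 1 and 0.791).

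Gabbr2 (probe set 17425095) read 2623, 2745 and 2851 after saline, 2639.9, 2651 and 2634 after ketamine, and 3091, 2901 and 2727 after sleep deprivation. The ketamine arrays were nearly identical, with a mean of 2642 ± 8.89 against 2740.0 ± 114 after saline and 2906 ± 182 after sleep deprivation (SD, n = 3). All SD values were above all ketamine values, which gives KT minus SD as -0.14 ± 0.088 (limma adjusted p = 0.61). Downward separation in that comparison was seen in 1 of 7 members against 5.54% of all genes, and upward in 0 of 7 against 4.53%. Between SD and saline no member separated in the deposited values, against 3.57% of genes upward and 3.54% downward, and Gabbr2 was at 0.083 ± 0.088 (adjusted p = 1). With quantile normalization all SD values of Gad1 and of Slc6a11 lay below all their saline values. The share of all genes that separated in that setting was not computed.

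**Figure D2:**
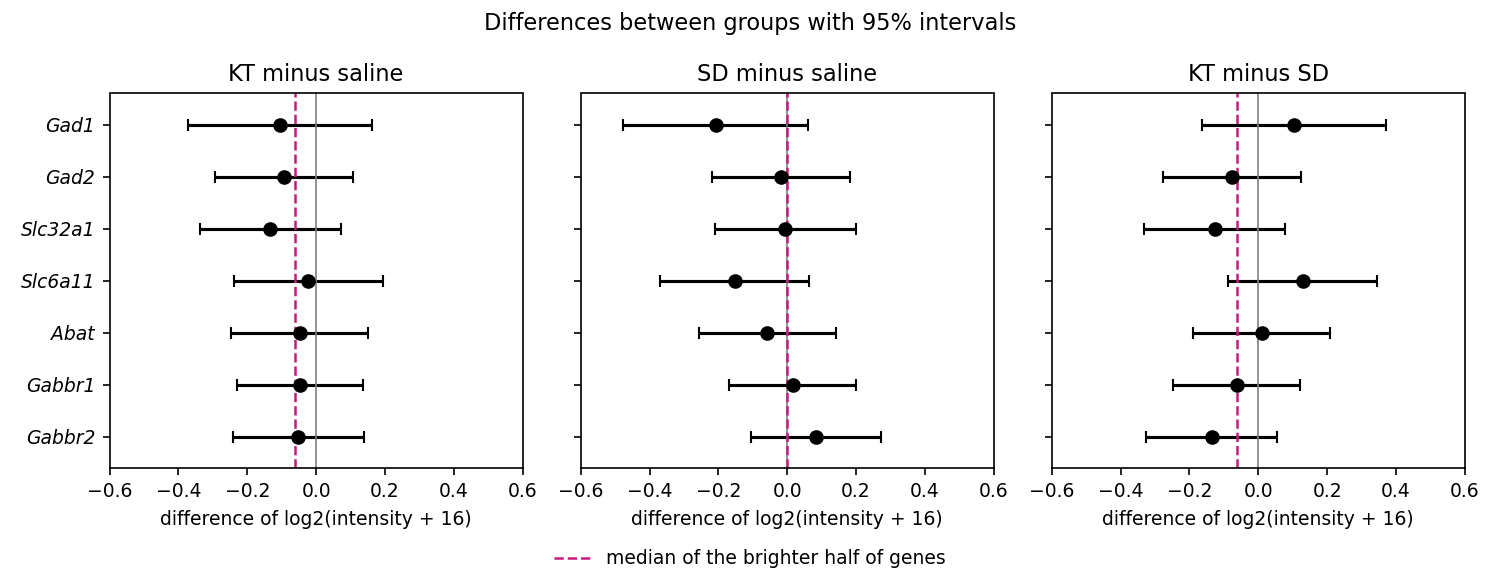
Differences of log2(intensity + 16) between groups (x axis) for the 7 genes (y axis), as points with 95% intervals from the limma fit, in 3 panels for the 3 comparisons. Every interval crosses 0, and the dashed line, the median of the 11090 brighter genes, stands at -0.060 in KT minus saline, near 0 in SD minus saline and at -0.063 in KT minus SD.

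All 7 members had a lower mean after ketamine than after saline, with a median difference of -0.052 and a range from -0.13 to -0.023. That direction was not particular to them. Each member is among the brighter genes of the arrays, from the 75.5th percentile of mean intensity for Slc32a1 to the 99.5th for Gabbr1. Of the 11090 genes at or above the median intensity, 73.5% had a lower mean after ketamine, with a median difference of -0.060, whereas over all 22180 genes 54.6% were lower and the median was -0.015. With quantile normalization, which gives all arrays 1 distribution, Slc6a11 moved to 0.041 and Abat to 0.0070, and 5 of 7 members were lower, with a median of -0.029.

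In SD minus saline 5 of 7 members were lower, with a median of -0.017, where the brighter genes were split evenly, 50.2% lower. In KT minus SD 4 of 7 were lower, with a median of -0.063, equal to that of the brighter genes (-0.063, with 72.5% lower). With quantile normalization the members' median in KT minus SD was -0.0085, and without SD array 2 it was -0.033 there and -0.055 in SD minus saline. The comparisons share arrays, so the 3 sets of differences are not independent.

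Array by array, the median of the 7 members followed that of the brighter genes. Against the saline mean it was -0.0082, -0.068 and -0.12 on ketamine arrays 1 to 3, where the brighter genes stood at 0.0095, -0.059 and -0.135. On the SD arrays it was -0.092, 0.059 and -0.057, beside -0.030, 0.091 and -0.049. The upper quartile of gene intensity was also lowest on ketamine array 3, at 283, and highest on SD array 2, at 349.7, with 303.7 to 321.5 on the others. After quantile normalization the members' medians were -0.0099, -0.025 and -0.0093 on the ketamine arrays and -0.073, -0.042 and -0.025 on the SD arrays.

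**Figure D3:**
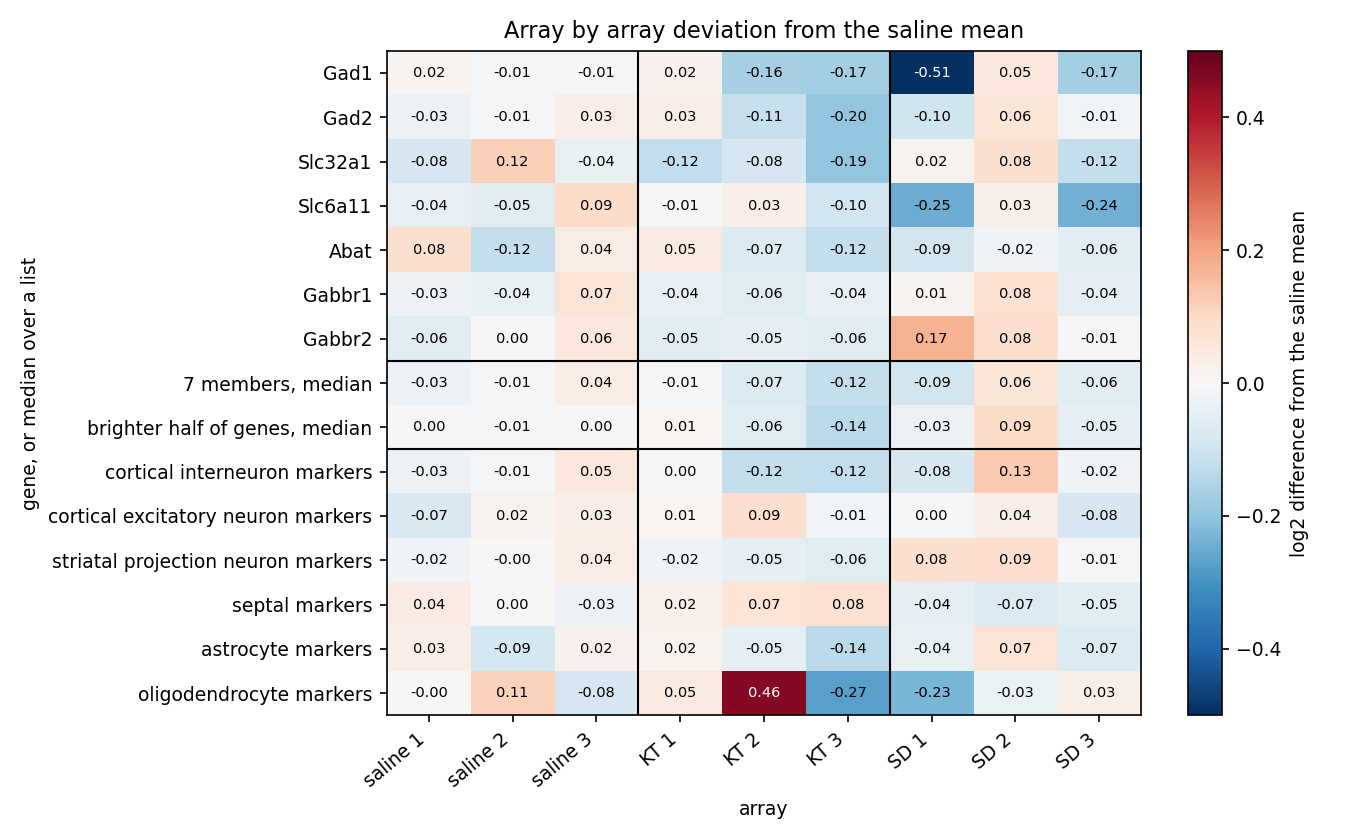
Log2 difference of each array (x axis) from the saline mean for the 7 genes, their median, the median of the 11090 brighter genes and 6 lists of marker genes (y axis), as colours with the value in each cell. Gad1 on SD array 1 (-0.51) and Slc6a11 on SD arrays 1 and 3 (-0.25 and -0.24) stand out among the members, and oligodendrocyte markers range from -0.27 to 0.46 within the ketamine group.

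The within-group SD on the log2 scale was 0.048 for Gabbr1, 0.0625 for Gabbr2, 0.081 for Abat, 0.084 for Gad2, 0.091 for Slc32a1, 0.11 for Slc6a11 and 0.17 for Gad1. Over all genes the median was 0.13, and over the brighter genes 0.12. Gabbr1 was thus steadier than all but 2.15% of the brighter genes, and Gad1 more variable than 87.2% of them. The spread of Gad1 was 0.28 in the sleep-deprived group, 0.11 after ketamine and 0.013 after saline. Its ratio of highest to lowest array was 1.50, against 1.099 for Gabbr1.

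Members varied together only loosely from array to array. Of 21 pairs, 17 had a positive Pearson r over the 9 arrays, with a median of 0.365, and 0 passed after Benjamini-Hochberg adjustment. The highest r was between Gad1 and Slc6a11 (r = 0.74, exact permutation p = 0.0195, adjusted p = 0.343; Spearman rho = 0.67, exact permutation p = 0.0589, adjusted p = 0.309). It was 0.50 without the 2 arrays on which Gad1 was farthest from its median. The receptor pair Gabbr1 and Gabbr2 had r = 0.71 (exact permutation p = 0.0326, adjusted p = 0.343; rho = 0.57, exact permutation p = 0.121, adjusted p = 0.362) and 0.87 without 2 arrays. Gad1 and Gad2 had r = 0.62 (exact permutation p = 0.0767, adjusted p = 0.399; rho = 0.77, exact permutation p = 0.0214, adjusted p = 0.218), 0.73 without 2 arrays, and 0.78 on deviations from the group means. Slc32a1, whose transporter acts in the same terminals, had r = 0.088 with Gad1 and 0.47 with Gad2. After centring each array on its median gene, r was 0.73 for Gad1 with Slc6a11, 0.78 for Gabbr1 with Gabbr2 and 0.61 for Gad1 with Gad2, and all 21 pairs kept their sign. All pairs also share the arrays' upper quartiles, which centring leaves unequal.

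**Figure D4:**
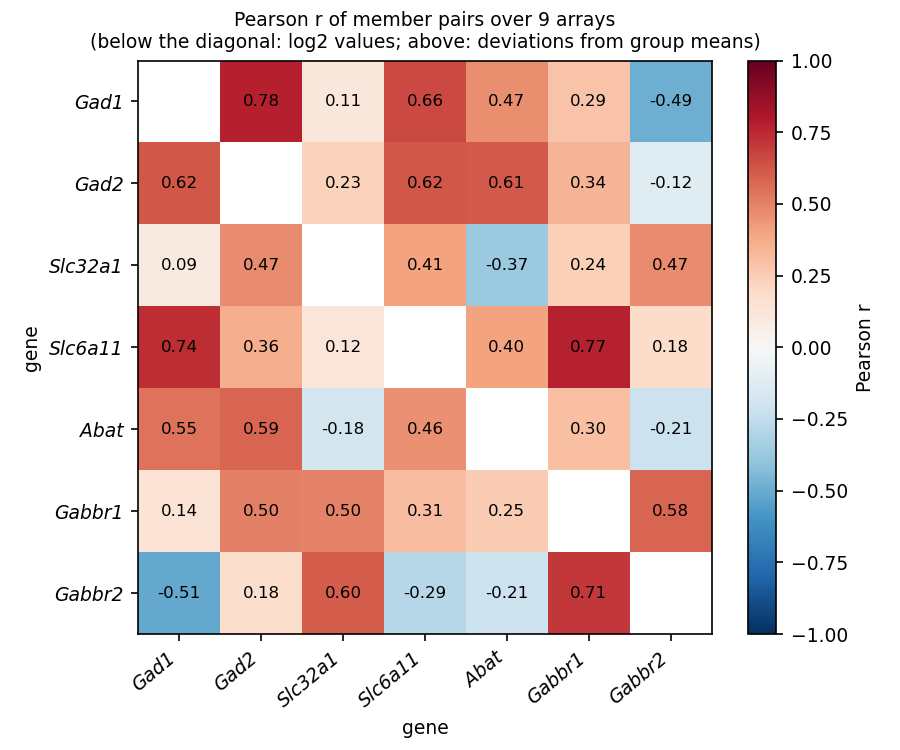
Pearson r between the 7 genes over 9 arrays, with genes on both axes, for log2 values below the diagonal and for deviations from group means above it. Values below the diagonal run from -0.51 for Gad1 with Gabbr2 to 0.74 for Gad1 with Slc6a11.

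Genes most like each member in pattern, by Pearson r over the 9 arrays among the brighter genes, were Fam174a and Flot2 for Gad1 (r = 0.97 and 0.96), Csnk2a1 and Lair1 for Gad2 (both 0.98), and Nfatc3 and Rb1cc1 for Slc32a1 (both 0.97). Slc6a11 was closest to P2ry12, the purinergic receptor gene of microglia, and Mfsd11 (both 0.98). Abat was closest to Dcaf8 and Paqr7 (0.94 and 0.93), Gabbr1 to Tpm1 and Mroh1 (0.96 and 0.93), and Gabbr2 to Lrp1 and Pxk (0.98 and 0.97). No member was among another's nearest genes, and the closest such rank was Gad1 at place 321 of 11089 for Slc6a11. These r values are the tops of 11089 comparisons over 9 points and are given as a description.

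Other genes of the pathway were taken from 4 lists of textbook genes. In the list of GABA reuptake, breakdown and precursor supply, 13 of 17 genes were measured, and 0 passed adjusted p 0.05 in any comparison. Relative to saline, 10 of 13 were lower after ketamine (median -0.041) and 6 of 13 after sleep deprivation (median 0.0079). The glutamine transporter genes Slc38a3 and Slc38a5 had the smallest unadjusted p after sleep deprivation, with Slc38a3 at -0.22 ± 0.095 and Slc38a5 at 0.33 ± 0.13 (limma adjusted p = 1 for each). Slc38a3 read 729, 758 and 637 on the SD arrays, all below the saline arrays at 799.6, 811 and 875. The ketamine arrays, at 757, 790 and 731, also lay below the saline arrays, with a difference of -0.12 ± 0.095. In SD minus saline and in KT minus saline, 1 of 13 genes of the list separated downward and 1 of 13 upward. Over all genes the shares were 3.54% and 7.89% downward, and 3.57% and 6.48% upward. The betaine and GABA transporter gene Slc6a12 was at 0.19 ± 0.11 in KT minus saline, and Pdxk, whose kinase makes the cofactor of GAD, at -0.16 ± 0.11 (adjusted p = 0.87 for each).

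Of 26 genes for auxiliary subunits and effectors of the GABA-B receptor, 25 were measured and 0 passed in any comparison. After ketamine 21 of 25 were lower than after saline (median -0.060, the same as in the brighter genes), and after sleep deprivation 14 of 25 (median -0.024). Kctd16, an auxiliary subunit of the receptor, read 1226, 1268 and 1311 after saline and 1108, 1113 and 987 after sleep deprivation, a difference of -0.24 ± 0.10 (limma adjusted p = 1). Kcnj3, a subunit of the potassium channel that the receptor opens, read 1351, 1445 and 1399 after saline and 1239, 1205 and 1198 after sleep deprivation, a difference of -0.20 ± 0.090 (adjusted p = 1). For these genes the SD arrays lay below the saline arrays, as 3 of 25 in the list did against 3.54% of all genes. Another channel subunit, Kcnj6, was at 0.13 ± 0.10 in SD minus saline and at -0.24 ± 0.10 in KT minus SD, and the G protein subunit gene Gng3 was at 0.24 ± 0.097 in KT minus SD (adjusted p = 0.518 and 0.484).

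Among 16 measured of 19 GABA-A receptor subunit genes, which encode the fast chloride channels opened by GABA, 0 passed. The median was -0.0059 in KT minus saline and -0.0525 in SD minus saline, with 9 and 11 of 16 lower. Gabrd, the subunit of extrasynaptic receptors, was at -0.19 ± 0.085 in KT minus saline, and Gabra6 at 0.31 ± 0.10 in KT minus SD on a dim probe set, with intensities from 18.1 to 30.4 (limma adjusted p = 0.87 and 0.42). Gabrd was also lower in SD minus saline, at -0.15 ± 0.085. Gabra4 was at -0.19 ± 0.091 in SD minus saline and Gabrg1 at -0.23 ± 0.12 in KT minus saline (adjusted p = 1 and 0.87). For vesicle and inhibitory synapse partners, 10 of 11 genes were measured, 0 passed, and the medians were -0.016 and -0.024. The vesicular glutamate transporter gene Slc17a6 had the largest difference there, -0.36 ± 0.19 in KT minus saline (adjusted p = 0.87). It read 249, 259 and 189 after saline and 237, 185 and 124 after ketamine, so the groups overlapped and ketamine array 3 was lowest.

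Marker genes of other cell types and of nearby regions were also read. Cortical excitatory genes were present on every array, with Slc17a7 from 2691 to 2965 and Tbr1 from 1156 to 1347. The median of that list differed from saline by 0.038 after ketamine and -0.026 after sleep deprivation (13 of 14 measured, 0 passed). In SD minus saline 7 of 13 were lower and 6 higher. There Etv1 was at -0.31 ± 0.0935, Rorb at -0.34 ± 0.13 and Neurod6 at 0.16 ± 0.091. Genes of striatal projection neurons, which are themselves GABAergic, included the dopamine receptor genes Drd1, from 93.5 to 143, and Drd2, from 86.7 to 105, and the list's median differed from saline by -0.034 after ketamine and 0.0089 after sleep deprivation (13 of 16 measured, 0 passed). The median gene read 127.5 to 131.5 over the arrays, so Drd2 lay below it on every array and Drd1 around it. Other genes of the list were brighter. Mean intensity ran from 93.0 for Drd2 to 854 for Foxp1, with Rarb at 122, Rgs9 at 293, Pde10a at 418 and Penk at 491. Whether striatal tissue was in the samples was not tested. Summed intensity of the striatal list ran from 3564 to 3764 after saline, 3486 to 3774 after ketamine and 3652 to 4019.97 after sleep deprivation. Of 11 endothelial and mural markers 10 were higher after sleep deprivation than after saline (median 0.12) and 9 were lower after ketamine than after saline (median -0.085). In KT minus SD 10 of 11 were lower (median -0.24), and 0 passed adjusted p 0.05 in any of these comparisons. Septal markers had medians of -0.013 and -0.017 (7 measured, 0 passed). All 10 measured choroid plexus and ependymal markers were lower after sleep deprivation than after saline (median -0.13). After ketamine 6 of 10 were lower than after saline (median -0.050), and 0 passed in either comparison. Kl read 587 on saline array 2 and 113 to 140 on the other arrays. The choroid plexus gene Ttr read 1624.5 and 8428 on saline arrays 1 and 2 and 89.5 to 467 on the other 7 arrays. The 7 members on saline arrays 1 and 2 lay between -0.12 and 0.12 of their saline means. Those means include both arrays, so a shift common to both would be largely hidden in these values. The part of choroid plexus content in the members' values was not tested.

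The genes listed as interneuron markers, whose cell source was not measured here, had differences of both signs. Of 21 measured of 24, 14 were lower after ketamine (median -0.041) and 9 after sleep deprivation (median 0.014), with 0 past adjusted p 0.05. In KT minus saline Vip was at -0.28 ± 0.11, the calretinin gene Calb2 at -0.40 ± 0.13 and Sst at 0.23 ± 0.10 (limma adjusted p = 0.87 for each), and Calb1 was at -0.30 ± 0.11 in SD minus saline (adjusted p = 1). By array, the list's median against the saline mean was 0.0027, -0.12 and -0.12 after ketamine and -0.081, 0.13 and -0.021 after sleep deprivation. Gad2 gave 0.0335, -0.11 and -0.20, and -0.099, 0.059 and -0.012, on the same arrays. The part of interneuron content in the values of the synthesis genes was not tested.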

How the data were processed

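The authors' deposited value table holds 41345 probe sets as linear intensity values on 9 Affymetrix arrays. Per the submitters' processing notes, Affymetrix Expression Console 1.1.1 and PLIER 2.0, which makes 1 value per probe set, were used. How background was corrected and arrays were normalized is not given in the sources used here. The median intensity of an array was 97.7 to 106.2, the number of arrays limits the precision, and no 2 arrays were identical.

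Probe sets with 1 gene in the platform annotation (23521) were named through RefSeq (23328 matched). Probe sets with several genes (1814) or none (16010) were left out. Of several probe sets the brightest was kept, giving 22180 genes. Here the intensities were put on a log2 scale after adding 16, which damps changes of dim genes, and fitted with limma 3.58.1 in R 4.3.3, all 9 arrays in 1 fit with 6 residual degrees of freedom, no covariate, and Benjamini-Hochberg adjustment at 0.05. The fit was tested on simulated data. The labels call the replicates biological and say nothing more of separate animals. The p-values therefore weigh differences against the spread between these arrays, which may not be the spread between mice.

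The members and lists were chosen with earlier results of these data known. The text names all members. It also names, from each pathway list, up to 4 genes with the smallest unadjusted p, marker genes by the same rule, and the 2 genes most like each member. Aqp4, Slc17a7, Tbr1, Drd1 and Drd2 were named as defining markers of their cell types. Foxp1, Pde10a and Penk were named to give the range of intensity in the striatal list. Alternatives were quantile normalization, centring, offsets of 1 and 64, a filter on dim genes, the mean of all probe sets, limma-trend, array weights, fits on the groups compared alone, a replicate block and leaving out each array.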

Additional observations from a re-analysis of the deposited data

How the results depend on the processing

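Of the members, 0 passed an adjusted p of 0.05 in limma in any of the 3 comparisons under any of 19 alternatives. Single members turned sign in 16 values, and 440 values were labelled unchanged. The 440 include the counts of members with a lower mean, which have no sign. These counts ran from 5 to 7 in KT minus saline and from 4 to 6 in each of the other comparisons. In KT minus saline Slc6a11 was at 0.041 with quantile normalization, at 0.0070 with array weights and between -0.052 and 0.023 with 1 array left out, and Abat was at 0.0070 with quantile normalization. In SD minus saline array weights gave Slc32a1 0.013 and Gabbr1 -0.00060, and leaving out 1 array gave Slc32a1 from -0.049 to 0.055, Gabbr1 from -0.014 to 0.0485 and Gad2 from -0.055 to 0.023. In KT minus SD Abat was at -0.0635 with the mean of all probe sets and from -0.036 to 0.047 with 1 array left out, and Gad1 from -0.046 to 0.23. The cause of these turns was not tested.

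The count of all genes called, 0 in each comparison, was 1439 in KT minus saline with array weights, in which ketamine array 2 had a weight of 7.92. In SD minus saline it was 1 with centring, 3 with limma-trend and between 0 and 4 with 1 array left out. In KT minus SD it was 14 with an offset of 64, 5 without the dimmest genes, 15 with limma-trend, 42 with array weights, and between 0 and 214 with 1 array left out, the latter without SD array 3.

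Same-numbered arrays did not deviate together (r from -0.20 to 0.44 over genes, not all above 0.1), so the numbers were not taken as pairs. With a replicate block the members' medians were unchanged at -0.052, -0.017 and -0.063, and 0 members and 0 genes were called.

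Of the correlations between members, 8 values turned sign and 55 did not. Without the 2 arrays farthest from the median, r was 0.32 for Gad1 with Gabbr2, -0.37 for Gad2 with Gabbr2, -0.092 for Slc32a1 with Slc6a11, 0.14 for Slc32a1 with Abat, 0.61 for Slc6a11 with Gabbr2 and 0.27 for Abat with Gabbr2. On deviations from group means it was -0.12 for Gad2 with Gabbr2 and 0.18 for Slc6a11 with Gabbr2.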

Other observations

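Slc32a1 and Abat each had a dimmer second probe set that entered only the mean of all probe sets above. The second of Slc32a1 (17393851) read 60.2, 58.4 and 67.1 after saline, 46.4, 54.2 and 51.8 after ketamine, and 60.0, 51.6 and 48.9 after sleep deprivation. The lower quartile of gene intensity was 58.7 to 72.3 over the arrays, so these dim values lie around or below it. All ketamine values lay below all saline values, a separation that 7.89% of all genes showed. The difference of KT minus saline was -0.22 ± 0.098 (limma, unadjusted p = 0.0395, adjusted p = 0.871 over 23521 probe sets). The brighter probe set gave -0.13 ± 0.095 there. In SD minus saline the dimmer one was at -0.17 and the brighter one at -0.0058. The second probe set of Abat (17327985) was at -0.18 ± 0.15 in KT minus saline (limma adjusted p = 0.871), and at -0.14 in KT minus SD, where the brighter one was at 0.011.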
